A study of Mus musculus with 20 samples.

Results

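Scavenger receptors are surface and secreted proteins that bind modified lipoproteins, microbial surfaces, dying cells and other debris and, in macrophages, carry much of this material into the cell. They belong to unrelated structural classes that share ligands rather than ancestry, so their genes need not be controlled together. In the lung, MARCO and the class A receptor MSR1 are known for the clearance of inhaled particles and bacteria by resident macrophages. The 9 genes described here were chosen by name, from 78409 genes in the deposited table: Marco, Msr1 and Colec12 of class A, Cd36 and Scarb1 of class B, Olr1, which encodes a lectin-like receptor for oxidized LDL, Stab1, Lrp1, and Cd5l, which encodes a secreted protein with scavenger receptor cysteine-rich domains.

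The study asked how airway fluid of mice with allergic airway inflammation, and the small noncoding RNA RNY1 in it, changes gene expression in macrophages. Wild-type bone marrow-derived macrophages (BMDMs) from C57BL/6J females were used at day 7 of culture and given PBS or a fraction of lavage fluid from ovalbumin-challenged mice. The fluid donors were RNY1+/+ or RNY1-/-, and each fluid was separated into a fraction enriched in extracellular vesicles (EV_Fx_) and a fraction enriched in protein (Protein_Fx_), which were stored for 5 days. The genotype therefore names the donor of the fluid and never the macrophage. Each of the 5 groups, PBS and the EV_Fx_ and Protein_Fx_ of either donor genotype, held 4 libraries. EV_Fx_ was dosed at 35000000 particles per µL and Protein_Fx_ at 0.75 µg of protein per µL, so a comparison between fractions was not matched for dose. Nothing in the labels shows that libraries sharing a treatment had separate fluid pools or cultures behind them. The p-values given here measure the spread between these libraries, which may be technical.

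Polyadenylated RNA was sequenced from the 3′ end with molecular identifiers, and total counts per library ran from 2510005 to 8277366. Levels are given in CPM, a count scaled to the total of its library, as mean ± SD over the 4 libraries of a group. Against the label, all 10 macrophage markers examined averaged at least 10 CPM, and their summed level was 8754 to 13698 CPM. Lyz2 was the most abundant of these markers at 5598 CPM. Markers of other cells were sparse or partial. No mast cell marker of 4 passed 3 counts in a library, and Mcpt4, Tpsb2 and Cma1 were at 0. The lung epithelial genes Sftpc and Sftpb were at 0, while Krt18 of that list averaged 7.69 CPM and 2 of its 5 genes passed 3 counts. Counts above 3 were found for 1 of 5 T cell markers (Cd4, 2.53 CPM), 2 of 4 B cell markers (most abundant Cd79b, 1.47 CPM) and 1 of 4 dendritic cell markers (Ccr7, 0.643 CPM). They were found for 4 of 5 endothelial markers (most abundant Kdr, 11.5 CPM) and 5 of 5 fibroblast markers (most abundant Col1a2, 12.6 CPM).

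Several of these lists moved with treatment. Of 10 neutrophil markers 7 passed 3 counts, led by S100a8 at 152 CPM, while Ly6g, Elane and Mpo stayed at 3 counts or fewer in every library. Their summed level was 307, 288, 336 and 304 CPM in PBS, 162, 157, 211 and 144 CPM in RNY1+/+ EV_Fx_ and 266, 185, 243 and 231 CPM in RNY1-/- EV_Fx_. It was 267, 326, 303 and 200 CPM in RNY1+/+ Protein_Fx_ and 357, 341, 325 and 242 CPM in RNY1-/- Protein_Fx_. The RNY1+/+ EV_Fx_ libraries thus lay low for this sum, which was mainly S100a8 and S100a9 (mean 99.1 CPM). Of the markers above 3 counts, S100a8, S100a9, Retnlg and Cxcr2 had their lowest mean in that group. Camp, Ngp and Ltf did not, at 1.91, 3.06 and 1.07 CPM there beside 1.70, 2.22 and 0.703 CPM in RNY1-/- EV_Fx_. Of 5 eosinophil markers 2 passed 3 counts, with Epx and Il5ra at 0 and nearly all of the signal in Ccr3, at a mean of 7.93 CPM. The eosinophil sum was 7.17, 7.57, 13.5 and 8.01 CPM in PBS, 1.42, 1.25, 0.801 and 1.33 CPM in RNY1+/+ EV_Fx_ and 1.31, 1.64, 2.46 and 1.51 CPM in RNY1-/- EV_Fx_. It was 14.7, 14.95, 21.1 and 16.7 CPM in RNY1+/+ Protein_Fx_ and 12.5, 12.3, 17.1 and 15.8 CPM in RNY1-/- Protein_Fx_, above all EV_Fx_ libraries. The fibroblast sum was 26.6, 35.1, 24.7 and 51.4 CPM in PBS and lower without overlap in RNY1-/- EV_Fx_, at 15.5, 19.5, 10.8 and 20.9 CPM. It was 24.3, 22.5, 23.8 and 39.5 CPM in RNY1+/+ EV_Fx_, 21.6, 28.9, 18.6 and 29.0 CPM in RNY1+/+ Protein_Fx_ and 24.4, 29.0, 11.6 and 22.6 CPM in RNY1-/- Protein_Fx_. The T cell sum was 9.22, 7.72, 2.52 and 3.56 CPM in PBS and lower without overlap in RNY1-/- EV_Fx_ (1.97, 1.94, 0.739 and 1.01 CPM) and RNY1+/+ Protein_Fx_ (1.91, 0.760, 1.01 and 0.694 CPM). It was 3.88, 4.25, 3.80 and 2.05 CPM in RNY1+/+ EV_Fx_ and 3.21, 4.06, 1.20 and 0.259 CPM in RNY1-/- Protein_Fx_. The part of these lists in the results was not tested. These are bulk libraries, in which fewer cells of a type and less RNA per cell cannot be told apart.

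Libraries of a group were not equally alike. The squared difference between a pair of libraries, in units of its counting noise, was 3.50 for RNY1-/- Protein_Fx_ replicates 1 and 2 and 2.57 for replicates 3 and 4. It was 13.3 to 15.7 across those pairs. PBS replicate 3 differed from the other PBS libraries by 16.8 to 34.8. The share of counts from mitochondrial genes was 6.49 ± 0.817% in PBS, 4.41 ± 0.490% in RNY1+/+ EV_Fx_, 5.77 ± 0.338% in RNY1-/- EV_Fx_, 5.13 ± 0.268% in RNY1+/+ Protein_Fx_ and 5.42 ± 0.462% in RNY1-/- Protein_Fx_ (SD, n = 4 each). Its part in the results was not tested either.

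Olr1 (ENSMUSG00000030162) was nearly silent in PBS, at 0, 0.154, 0.229 and 0 CPM, which is 2 counts in the 4 libraries together. In RNY1+/+ Protein_Fx_ it stood at 10.5, 10.1, 18.1 and 36.8 CPM. In RNY1-/- Protein_Fx_ it stood at 1.51, 2.098, 2.79 and 3.89 CPM. Macrophages given RNY1+/+ Protein_Fx_ were set apart from every other library, since the lowest of their values exceeded the highest found elsewhere. Olr1 in RNY1+/+ EV_Fx_ was 1.16, 1.00, 2.20 and 1.69 CPM. In RNY1-/- EV_Fx_ it was 0.919, 0.745, 2.96 and 0.505 CPM. The group means ran from RNY1+/+ Protein_Fx_ (18.9 ± 12.5 CPM) through RNY1-/- Protein_Fx_ (2.57 ± 1.02 CPM), RNY1+/+ EV_Fx_ (1.51 ± 0.545 CPM) and RNY1-/- EV_Fx_ (1.28 ± 1.13 CPM) to PBS (0.0958 ± 0.115 CPM). The 3 middle groups overlapped their neighbours in this order, while PBS lay below all libraries of the fractions.

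With so few counts in PBS, the ratio to PBS is given with its exact 95% interval from the summed counts, which covers counting error only. The ratio was 214 (59 to 1772) for RNY1+/+ Protein_Fx_ with 379 counts. Of these 212 came from replicate 4, so its size leans on that library. It was 25.5 (6.67 to 217) for RNY1-/- Protein_Fx_ with 45 counts. For RNY1+/+ EV_Fx_ with 42 counts the ratio was 15.5 (4.02 to 132), and for RNY1-/- EV_Fx_ with 27 counts it was 11.8 (2.98 to 103). All 4 intervals lay above equality, and their widths came mainly from the 2 PBS counts.

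Marco (ENSMUSG00000026390), a class A receptor with a collagenous stalk, followed another order, with EV_Fx_ above Protein_Fx_. It was at 7.38, 10.7, 5.95 and 6.05 CPM in PBS. In RNY1+/+ EV_Fx_ it reached 230, 375, 163 and 237 CPM, and in RNY1-/- EV_Fx_ 140, 232, 125 and 116 CPM. The EV_Fx_ groups overlapped each other, and every EV_Fx_ library exceeded every Protein_Fx_ library. Marco was at 53.8, 102, 58.8 and 65.6 CPM in RNY1+/+ Protein_Fx_. In RNY1-/- Protein_Fx_ it was at 26.1, 62.2, 22.7 and 23.9 CPM. Replicate 2 of this last group lay within the range of RNY1+/+ Protein_Fx_, while the other 3 lay below it and above PBS. The means were 251 ± 88.7, 153 ± 53.4, 70.0 ± 21.7, 33.7 ± 19.1 and 7.51 ± 2.20 CPM in this order of groups, from RNY1+/+ EV_Fx_ to PBS. Replicate 2 was the highest of the 4 libraries in each of the 5 groups.

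Msr1 (ENSMUSG00000025044), the class A receptor for acetylated LDL, was high with Protein_Fx_ alone. It was at 175, 187, 240 and 170 CPM in PBS, a level that the EV_Fx_ groups shared. RNY1+/+ EV_Fx_ gave 196, 195, 173 and 156 CPM, and RNY1-/- EV_Fx_ gave 197, 225, 185 and 220 CPM. In RNY1+/+ Protein_Fx_ Msr1 reached 536, 558, 623 and 737 CPM, and in RNY1-/- Protein_Fx_ 319, 342, 533 and 423 CPM. All RNY1+/+ Protein_Fx_ libraries lay above all RNY1-/- Protein_Fx_ libraries, by a narrow margin at replicate 3 of the latter. The means in order were 613 ± 90.3 CPM for RNY1+/+ Protein_Fx_, 404 ± 96.6 CPM for RNY1-/- Protein_Fx_, 207 ± 18.9 CPM for RNY1-/- EV_Fx_, 193 ± 31.9 CPM for PBS and 180 ± 19.3 CPM for RNY1+/+ EV_Fx_. The last 3 overlapped.

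**Figure D1:**
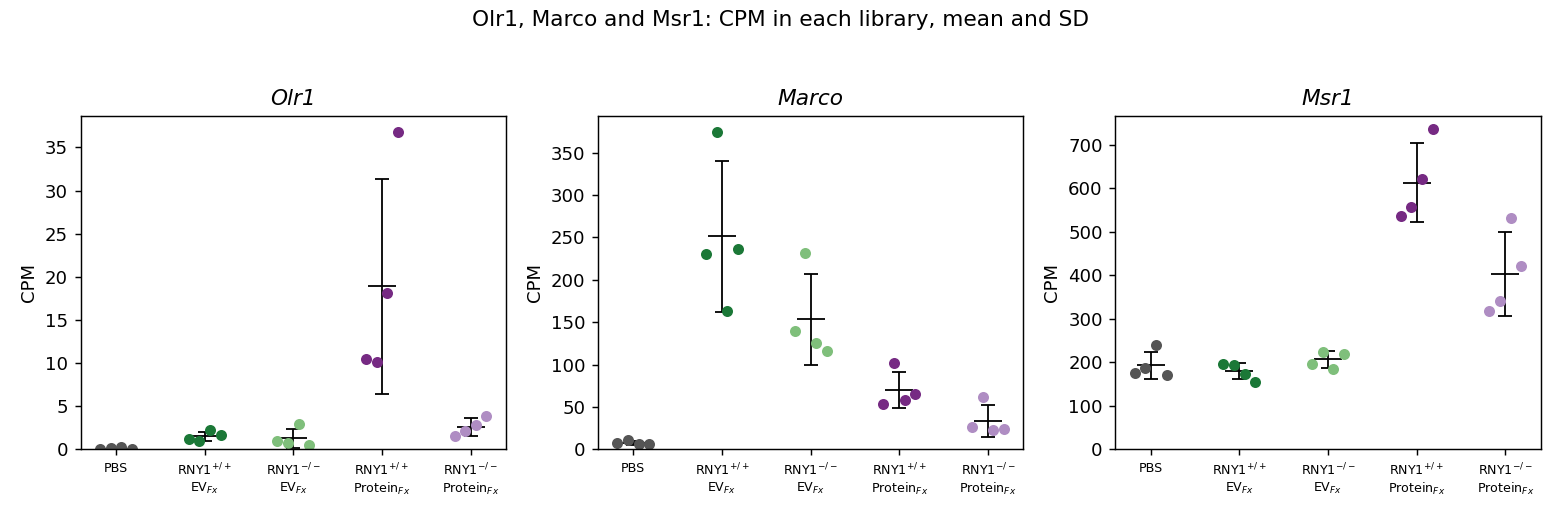
CPM of Olr1, Marco and Msr1 (vertical axes, from 0) in the 5 treatment groups (horizontal axes). Points are the 4 libraries of a group in order of replicate number, the wide dash is the mean and the bar is 1 SD to either side. Olr1 and Msr1 are highest in RNY1+/+ Protein_Fx_, at 18.9 and 613 CPM, and Marco is highest in RNY1+/+ EV_Fx_, at 251 CPM.

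Colec12 (ENSMUSG00000036103), the collectin of class A, was lowest with EV_Fx_. PBS libraries held 53.9, 72.9, 79.0 and 81.7 CPM, RNY1+/+ EV_Fx_ libraries 24.3, 23.6, 21.7 and 19.2 CPM and RNY1-/- EV_Fx_ libraries 37.5, 42.4, 28.4 and 37.0 CPM. The EV_Fx_ groups did not overlap each other, and both lay below PBS and Protein_Fx_. Group means were 52.4 ± 5.13 CPM in RNY1+/+ Protein_Fx_ and 64.1 ± 16.5 CPM in RNY1-/- Protein_Fx_, which overlapped each other and PBS (71.9 ± 12.6 CPM). Counts of Colec12 held shared reads, from fragments that map to several places, in 16 of 20 libraries, those of Stab1 in 11 and those of Cd36 in 10.

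Cd36 (ENSMUSG00000002944), the class B receptor for oxidized LDL and long-chain fatty acids, was highest in PBS, at 2085, 1842, 3075 and 2503 CPM. All libraries of the fractions lay below these, between 514 CPM in RNY1+/+ EV_Fx_ and 1262 CPM in RNY1-/- Protein_Fx_. Behind PBS (2376 ± 540 CPM) the means ran from RNY1-/- Protein_Fx_ (1079 ± 188 CPM) through RNY1+/+ Protein_Fx_ (777 ± 187 CPM) and RNY1-/- EV_Fx_ (771 ± 124 CPM) to RNY1+/+ EV_Fx_ (570 ± 69.7 CPM), each overlapping the next. Scarb1 (ENSMUSG00000037936), the class B receptor for HDL, averaged 35.7 ± 9.31 CPM in PBS and 33.8 ± 7.04 CPM in RNY1+/+ EV_Fx_, which overlapped. Its mean was lower in RNY1-/- EV_Fx_ (21.4 ± 2.98 CPM), and lowest in RNY1-/- Protein_Fx_ (14.9 ± 2.69 CPM) and RNY1+/+ Protein_Fx_ (12.8 ± 2.03 CPM). The Protein_Fx_ groups overlapped each other and lay below all other libraries.

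Stab1 (ENSMUSG00000042286), a large receptor that takes up acetylated LDL and apoptotic cells, was at 239, 275, 149 and 199 CPM in PBS. Its means of 89.3 ± 23.8 CPM in RNY1-/- Protein_Fx_ and 80.1 ± 2.30 CPM in RNY1+/+ Protein_Fx_ came next and overlapped. RNY1+/+ EV_Fx_ (47.3 ± 2.24 CPM) and RNY1-/- EV_Fx_ (31.3 ± 5.53 CPM) followed, each with no overlap with the group before it. Lrp1 (ENSMUSG00000040249), a large endocytic receptor with many ligands, held 457, 502, 279 and 330 CPM in PBS. Means of 141 ± 25.9 CPM in RNY1-/- Protein_Fx_, 125 ± 17.6 CPM in RNY1+/+ EV_Fx_ and 119 ± 6.65 CPM in RNY1+/+ Protein_Fx_ overlapped, and RNY1-/- EV_Fx_ was lowest at 83.7 ± 11 CPM. Cd5l (ENSMUSG00000015854), whose product is also known as AIM, was at 227, 239, 181 and 204 CPM in PBS. It had 3 further levels, with EV_Fx_ at 102 ± 13.1 CPM for RNY1+/+ and 84.3 ± 7.05 CPM for RNY1-/-, which overlapped. RNY1-/- Protein_Fx_ at 55.8 ± 8.59 CPM and RNY1+/+ Protein_Fx_ at 36.0 ± 6.63 CPM overlapped no other group.

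**Figure D2:**
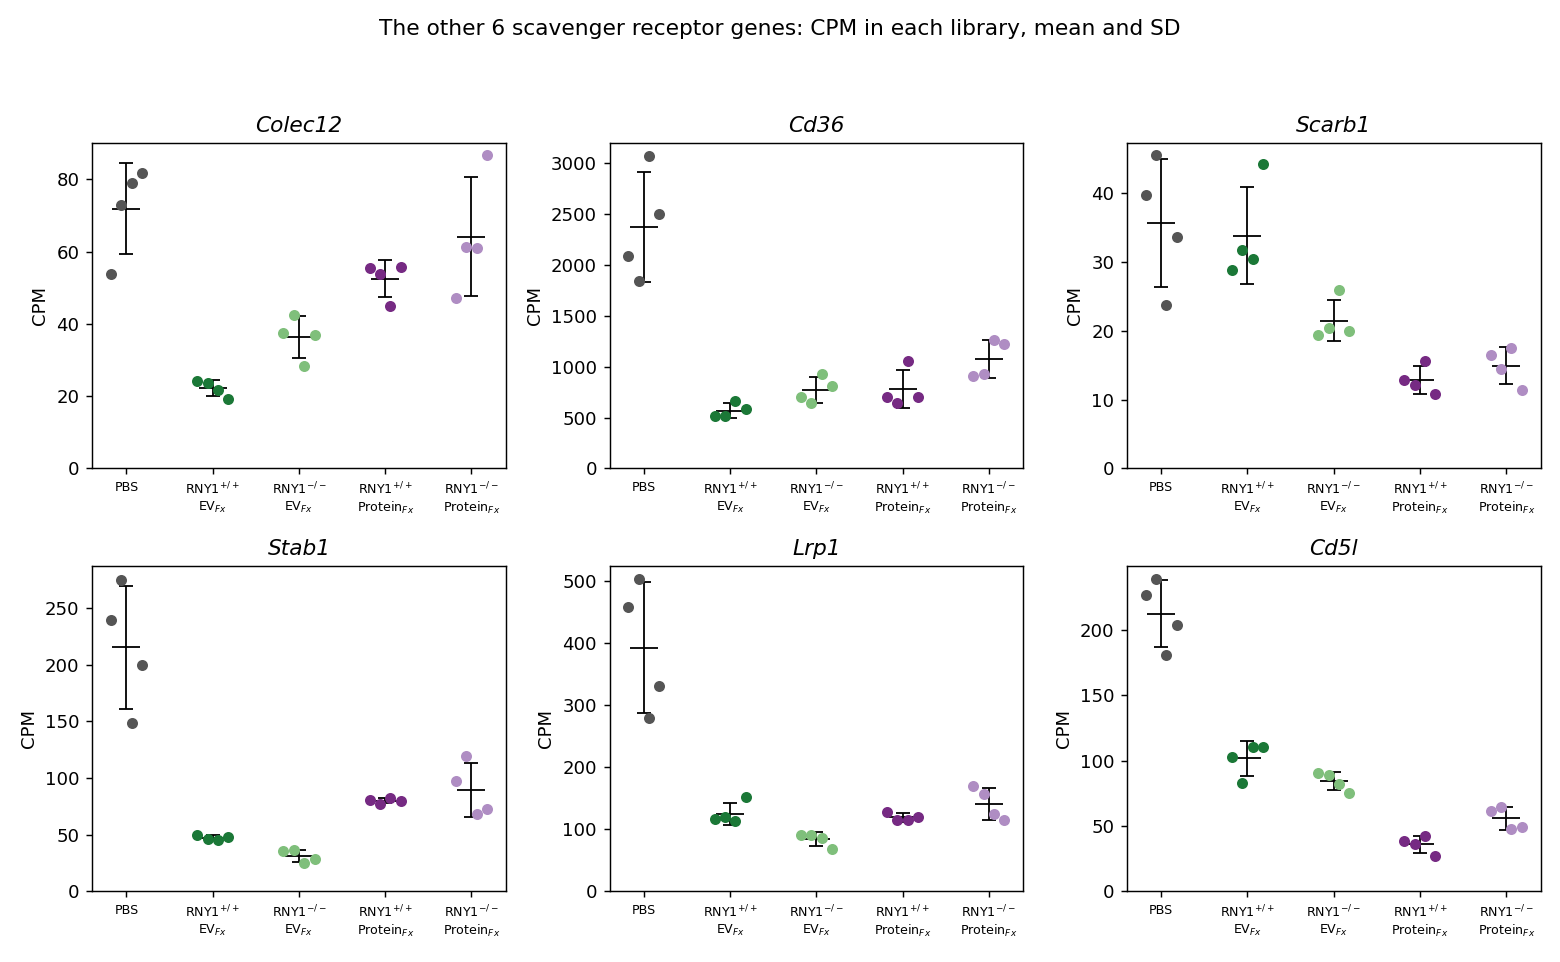
CPM of Colec12, Cd36, Scarb1, Stab1, Lrp1 and Cd5l (vertical axes, from 0) in the 5 treatment groups (horizontal axes). Points are the 4 libraries of a group, the wide dash is the mean and the bar is 1 SD to either side. PBS has the highest mean in each panel, and the group with the lowest mean differs between genes.

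Comparisons were fitted with edgeR over all genes tested. Each log2 fold change is given with its standard error (SE). A gene was called where its adjusted p (Benjamini-Hochberg over all genes tested) was under 0.05 and its log2 fold change was above 1 in size. Genes averaging under 3 CPM over the libraries of a comparison were not tested. The 4 comparisons with PBS share the PBS libraries, so likeness between them is in part built in. Scaling by total counts instead of TMM moved the median log2 fold change of all genes against PBS from -0.03 to -0.21 (RNY1+/+) and -0.27 (RNY1-/-) for EV_Fx_, and to -0.20 (RNY1+/+) and -0.10 (RNY1-/-) for Protein_Fx_. No called member turned its direction with this scaling. Counts of called genes stand beside the share of all genes called, and a count of 3 genes or fewer was taken as too small to read against that share. Members and lists were chosen with earlier results of these data known. A share above that of all genes is therefore a description and no test.

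With RNY1+/+ EV_Fx_, macrophages raised Marco and lowered Stab1, Cd36, Colec12 and Lrp1. Marco rose by a log2 fold change of 5.22 (SE 0.29, adjusted p = 1.46e-07), higher in 4 of 4 libraries than in all PBS libraries. Stab1 (-2.01), Cd36 (-1.88), Colec12 (-1.51) and Lrp1 (-1.47) fell on the log2 scale, with SEs of 0.15 to 0.18. Cd5l had a log2 fold change of -0.89 (adjusted p = 0.000188), which did not reach the fold limit. With total counts it was at -1.06 (adjusted p = 5.12e-05) and was called, which made 6 members. Msr1 at 0.08 (adjusted p = 0.658) and Scarb1 at 0.10 (adjusted p = 0.728) were not called, and Olr1 averaged under 3 CPM and was not tested. Of the 8 members tested 1 rose, against 8.24% of all genes tested, and 4 fell, against 8.18% of all genes. The share that fell was above this background. With total counts the shares of all genes were 6.82% higher and 11.3% lower. The median log2 fold change was -1.18 over the 8 members and -0.03 over all genes tested. Total counts put Msr1 at -0.10 and Scarb1 at -0.08, still without a call, and removal of length and GC trends put Msr1 at -0.10.

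With RNY1-/- EV_Fx_, Marco rose against PBS and Stab1, Lrp1, Cd36 and Cd5l fell. The log2 fold change of Marco was 4.56 (SE 0.26, adjusted p = 1.57e-07). Stab1 (-2.53), Lrp1 (-1.99), Cd36 (-1.38) and Cd5l (-1.09) fell, with SEs of 0.11 to 0.19. Colec12 at -0.73 (adjusted p = 0.00218), Scarb1 at -0.51 (adjusted p = 0.0343) and Msr1 at 0.34 (adjusted p = 0.0378) were under the fold limit. Of the 8 members tested 1 rose, beside 9.02% of all genes, and 4 fell, above the 13.5% of all genes that fell. With total counts these shares of all genes were 6.50% and 19.9%. The median over the members was -0.91, beside -0.03 over all genes. After removal of length and GC trends Colec12 was called as well, at -1.12, Msr1 turned to -0.08 and Scarb1 was at -0.11 (adjusted p = 0.450), with the same calls when replicate number was added as a block.

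RNY1+/+ Protein_Fx_ raised Olr1, Marco and Msr1 and lowered 5 others, among them both class B receptors. Olr1 had a fitted log2 fold change of 7.50 (SE 0.76, adjusted p = 1.01e-05), a size that depends on the prior count because PBS held 2 counts. Marco rose by 3.36 (SE 0.24, adjusted p = 6.76e-07) and Msr1 by 1.84 (SE 0.15, adjusted p = 1.62e-06), both higher in 4 of 4 libraries than in all PBS libraries. Cd5l (-2.40), Lrp1 (-1.55), Cd36 (-1.45), Scarb1 (-1.32) and Stab1 (-1.26) fell on the log2 scale, with SEs of 0.15 to 0.20. Colec12 had a log2 fold change of -0.28 (adjusted p = 0.116) and was not called. It was at -0.45 (adjusted p = 0.0185) with total counts and -0.72 (adjusted p = 0.000207) with length and GC trends removed, both under the fold limit. Thus 3 members rose, where 8.96% of all genes did, and 5 fell, where 12.3% of all genes did. Olr1 entered the test only through its level in the treated group. Without it 2 of 8 members rose and 5 fell, and the share that fell was above the background. The total-count shares of all genes were 7.13% and 17.01%. The median over 9 members was -1.26, also with Olr1 at the lower end of its counting interval, beside -0.03 over all genes. With length and GC trends removed Lrp1 (-0.96), Scarb1 (-0.90) and Stab1 (-0.88) lost their calls on the fold limit, which left 5 members called. Of these Cd36 and Cd5l fell, too few to read against the share of all genes. The shares of all genes were then 8.19% higher and 8.67% lower.

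RNY1-/- Protein_Fx_ raised Marco and Msr1 and lowered Cd5l, Lrp1, Scarb1, Stab1 and Cd36. Marco rose by a log2 fold change of 2.23 (SE 0.35, adjusted p = 0.000887) and Msr1 by 1.14 (SE 0.19, adjusted p = 0.00149). Cd5l (-1.86), Lrp1 (-1.41), Scarb1 (-1.21), Stab1 (-1.20) and Cd36 (-1.06) fell, with SEs of 0.14 to 0.22. Colec12 stood at -0.09 (adjusted p = 0.736), or at -0.47 (adjusted p = 0.0434) with length and GC trends removed, and Olr1 was not tested. Of 8 members 2 rose, beside 6.3% of all genes, and 5 fell, above the 7.97% of all genes that fell (5.08% to 11.1% without 1 library). The median was -1.13 over the members and -0.03 over all genes. With length and GC trends removed the shares of all genes were 5.73% higher and 4.23% lower, and Msr1 (0.72), Lrp1 (-0.85), Scarb1 (-0.83) and Stab1 (-0.85) lost their calls, which left 3 members. The calls near the fold limit also rested on single libraries. Msr1 was at 0.97 without RNY1-/- Protein_Fx_ replicate 3, and Cd36 was at -0.93 without PBS replicate 3, -0.97 without RNY1-/- Protein_Fx_ replicate 1 and -0.97 without replicate 2. Without RNY1-/- Protein_Fx_ replicates 1 and 2 together Cd36 was at -0.81, and without replicates 3 and 4 Msr1 was at 0.80 and Stab1 at -0.96, all below the limit. Colec12 turned to 0.17 without replicates 1 and 2.

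**Figure D3:**
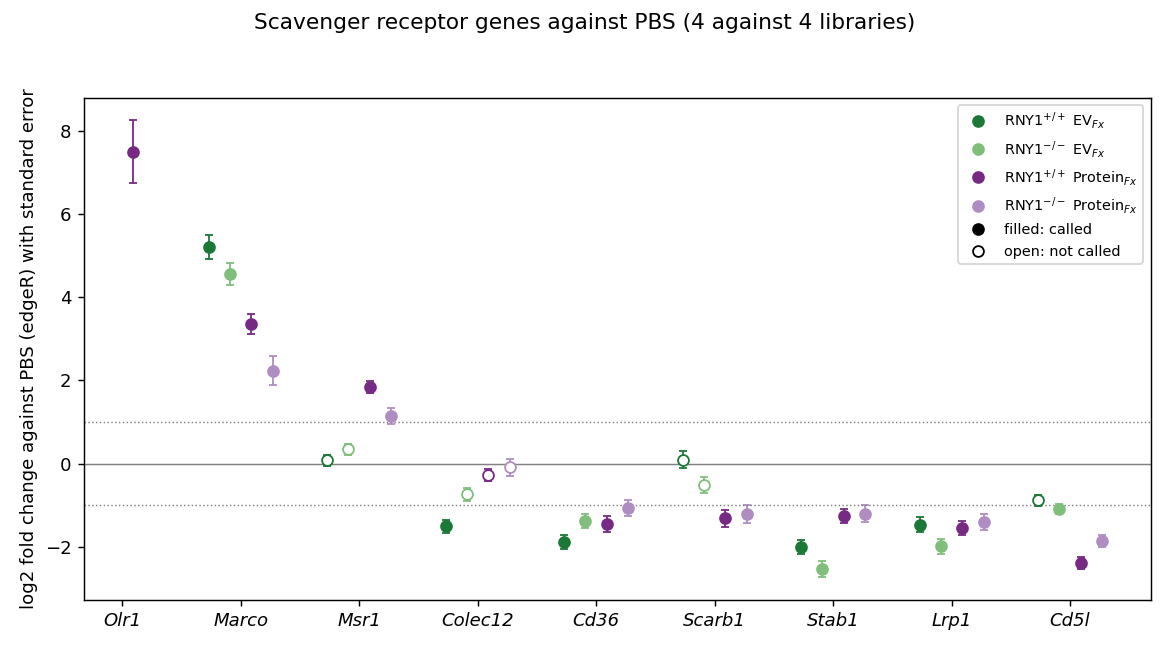
Log2 fold change of each scavenger receptor gene against PBS (vertical axis, edgeR, bars are the standard error to either side) for the 4 fraction groups, with 4 libraries against 4. Filled points were called, open points were not, and dotted lines mark the fold limit of 1 in either direction. Olr1 was tested only for RNY1+/+ Protein_Fx_, at 7.50, and Marco was called in all 4 groups, from 2.23 to 5.22.

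The genotype of the fluid donor was compared within each fraction, to ask what RNY1 in the fluid contributes. Between RNY1-/- and RNY1+/+ EV_Fx_ the members differed by small amounts. Colec12 was at a log2 fold change of 0.79 (SE 0.12, adjusted p = 0.000317), Cd36 at 0.51 (adjusted p = 0.00401) and Msr1 at 0.27 (adjusted p = 0.0275). Marco was at -0.65 (adjusted p = 0.0326), Scarb1 at -0.61 (adjusted p = 0.00368), Stab1 at -0.51 (adjusted p = 0.00164), Lrp1 at -0.51 (adjusted p = 0.00188) and Cd5l at -0.20 (adjusted p = 0.105). By edgeR 0 of the 8 members tested were called, where 0.378% of all genes were called higher and 1.96% lower. DESeq2 called 0 as well, and 7 had an unadjusted p under 0.05, as had 58.5% of all genes. Without 1 library the shares called were 0.117% to 0.801% and 0.845% to 2.76%. The 7 had an adjusted p under 0.05 at any fold, which was the case for 52.1% of all genes tested, so most genes at large passed this limit as well. The fold changes of all genes in this comparison followed GC content, with a Spearman rho of -0.64 across genes, and genes do not count as independent replicates. After removal of length and GC trends the shares called were 0.559% higher and 0.389% lower, and of the members Colec12 (0.56, adjusted p = 0.0019) alone had an adjusted p under 0.05. Marco was then at -0.27, Scarb1 at -0.24, Stab1 at -0.11, Lrp1 at -0.03, Cd36 at 0.07 and Msr1 at 0.02.

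Within Protein_Fx_, Olr1 and Marco were called between donor genotypes. Olr1 was lower with RNY1-/- Protein_Fx_ in 4 of 4 libraries, by a log2 fold change of -3.07 (SE 0.48, adjusted p = 0.00267). Marco fell by 1.09 (SE 0.29, adjusted p = 0.0453), with overlapping groups. Msr1 at -0.69 (SE 0.18, adjusted p = 0.0379) and Cd5l at 0.56 (SE 0.14, adjusted p = 0.0364) passed the limit on p but not on fold, and their groups did not overlap. The other members, Cd36 at 0.40, Colec12 at 0.20, Lrp1 at 0.16, Scarb1 at 0.13 and Stab1 at 0.08, had adjusted p from 0.233 to 0.832. By edgeR 0 of 9 members rose, beside 0.658% of all genes, and 2 fell, beside 1.16% of all genes. Olr1 passed the filter only through its level in RNY1+/+ Protein_Fx_, and without it 1 of 8 fell. With an unadjusted p under 0.05, 2 were higher and 3 lower, where 19.3% of all genes passed that limit, and DESeq2 called 0 higher and the same 2 lower. With total counts the shares of all genes were 0.973% and 0.954%, and without 1 library they were 0.294% to 0.916% and 0.798% to 1.46%. The median was 0.13 over the members and 0.02 over all genes.

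The call of Olr1 held without each of the 8 libraries in turn, at -3.36 to -2.46 with adjusted p from 0.00234 to 0.00982. It was -2.52 (adjusted p = 0.0284) without RNY1-/- Protein_Fx_ replicates 1 and 2, and -3.52 (adjusted p = 0.00116) without replicates 3 and 4. The call of Marco did not hold in this way. Its log2 fold change without RNY1+/+ Protein_Fx_ replicate 1 was -1.21 (adjusted p = 0.0567), without replicate 2 -0.87 (adjusted p = 0.133), without replicate 3 -1.17 (adjusted p = 0.0598) and without replicate 4 -1.11 (adjusted p = 0.126). Without RNY1-/- Protein_Fx_ replicate 1 it was -0.96 (adjusted p = 0.125), without replicate 3 -0.97 (adjusted p = 0.0538) and without replicate 4 -0.97 (adjusted p = 0.107). Only without RNY1-/- Protein_Fx_ replicate 2, the library that overlapped the other group, was it called among these omissions, at -1.59 (adjusted p = 0.00131). Scaling by total counts (-0.99, adjusted p = 0.0764) or to the housekeeping genes Rab14, Arpc2 and Cltc (-1.12, adjusted p = 0.0550) also ended the call. Msr1 was called, at -1.03, without RNY1-/- Protein_Fx_ replicates 3 and 4, and stood at -0.40 without replicates 1 and 2.

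Whether the donor genotype acted differently in the fractions was tested directly, as the genotype effect in Protein_Fx_ minus that in EV_Fx_ over 16 libraries. Olr1 differed, with a log2 difference of -2.78 (SE 0.87, adjusted p = 0.0224). Marco did not pass, at -0.43 (SE 0.42, adjusted p = 0.425), so its genotype effect was not shown to differ between fractions in this fit. Without 1 library its value ran from -0.93 to -0.18, with adjusted p from 0.0831 to 0.742. With replicate number as a block it was -0.55 (adjusted p = 0.0252), past the limit on p but under the fold limit. Msr1 was at -0.96, Cd5l at 0.76, Scarb1 at 0.73, Lrp1 at 0.67 and Stab1 at 0.59, with adjusted p from 0.00572 to 0.0225 and all under the fold limit. Cd36 was at -0.11 (adjusted p = 0.723) and Colec12 at -0.59 (adjusted p = 0.0525). By edgeR 0 of 9 members were called higher, beside 5.32% of all genes, and 1 lower, beside 2.44% of all genes. DESeq2 called 0 higher and 1 lower, and with an unadjusted p under 0.05, 4 were higher and 3 lower, where 46.8% of all genes passed that limit. The 1 lower was Olr1, again tested through its level in RNY1+/+ Protein_Fx_, and without it 0 of 8 were called. With total counts, which moved the median of all genes from 0.00 to 0.16, the shares of all genes were 9.28% and 1.28%, and after removal of length and GC trends 1.95% and 2.17%. They also rested on single libraries, at 3.22% to 7.57% and 1.40% to 4.17% without 1 library. Without RNY1-/- Protein_Fx_ replicates 1 and 2 they were 0.394% and 0.557%, and without replicates 3 and 4 10.7% and 7.50%. At any fold 6 members had an adjusted p under 0.05, as did 33% of all genes. Removal of the trends brought Scarb1 to 0.30, Stab1 to 0.17 and Lrp1 to 0.15, no longer past the limit on p, while Olr1 at -2.62 (adjusted p = 0.0477) stayed called.

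The Olr1 difference leaned on few counts in EV_Fx_ and on single libraries. Without RNY1-/- EV_Fx_ replicate 3 it was -2.19 (adjusted p = 0.0923), and without RNY1-/- Protein_Fx_ replicate 2 it was -2.65 (adjusted p = 0.0517). Without RNY1-/- Protein_Fx_ replicates 1 and 2 it was -2.21 (adjusted p = 0.185), and without replicates 3 and 4 -3.21 (adjusted p = 0.00982). Msr1 passed the fold limit without RNY1+/+ EV_Fx_ replicate 1 (-1.004), RNY1-/- EV_Fx_ replicate 3 (-1.01), RNY1+/+ Protein_Fx_ replicate 1 (-1.01) or RNY1-/- Protein_Fx_ replicate 3 (-1.12), and without replicates 3 and 4 of that last group (-1.29).

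The fractions were also compared with each other, at doses in different units. RNY1+/+ Protein_Fx_ gave higher Olr1, by a log2 fold change of 3.72 (SE 0.45), Msr1, by 1.77 (SE 0.12), and Colec12, by 1.24 (SE 0.11), than RNY1+/+ EV_Fx_. Marco (-1.85), Cd5l (-1.51) and Scarb1 (-1.42) were lower on the log2 scale. Stab1 at 0.76 and Cd36 at 0.45 were under the fold limit, and Lrp1 was at -0.07 (adjusted p = 0.528). Of 9 members 3 were higher, beside 6.64% of all genes, and 3 lower, beside 6.78% of all genes. Olr1 averaged under 3 CPM in RNY1+/+ EV_Fx_ and passed the filter through the other group. Without it 2 of 8 were higher and 3 lower. With scaling to the housekeeping genes the shares of all genes were 5.42% and 8.85%. Removal of length and GC trends took Colec12 to 0.97 and Stab1 to 1.18, and turned Cd36 to -0.07 and Lrp1 to 0.45 (adjusted p = 0.000153), which passed the limit on p but not on fold.

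Between RNY1-/- Protein_Fx_ and RNY1-/- EV_Fx_ 2 members were called. Stab1 was higher by a log2 fold change of 1.35 (SE 0.17, adjusted p = 6.33e-05) and Marco was lower, at -2.30 (SE 0.30, adjusted p = 0.000104). Msr1 at 0.81, Colec12 at 0.65, Lrp1 at 0.59, Scarb1 at -0.69 and Cd5l at -0.75 had adjusted p from 0.00019 to 0.021 below the fold limit, and Cd36 was at 0.33 (adjusted p = 0.162). Of the 8 members tested 1 rose, beside 4.97% of all genes, and 1 fell, beside 4.06% of all genes. With total counts, which moved the median of all genes from 0.02 to 0.19, these shares were 6.79% and 3.09%, and with scaling to the housekeeping genes 4.00% and 5.01%. Msr1 was called as well, at 1.08, without RNY1-/- Protein_Fx_ replicates 1 and 2.

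Other receptors of the scavenger classes were less often measurable, with 7 of 19 listed genes tested. Against PBS, taking EV_Fx_ before Protein_Fx_ and RNY1+/+ before RNY1-/- donors, 1, 1, 1 and 1 of them rose and 3, 3, 0 and 0 fell by edgeR. DESeq2 gave the same counts. At an unadjusted p under 0.05, 2, 1, 2 and 3 genes were higher and 5, 4, 2 and 1 lower, where 51.7%, 63.0%, 60.5% and 48.0% of all genes passed that limit. The median log2 fold changes were -0.65, -0.84, 0.03 and 0.35, beside -0.03 over all genes in each comparison. Over all genes 8.24%, 9.02%, 8.96% and 6.3% rose and 8.18%, 13.5%, 12.3% and 7.97% fell. Cxcl16, a transmembrane chemokine that also binds oxidized LDL, was the gene that rose, by log2 fold changes of 2.32, 1.92, 2.24 and 1.96. Mrc1, the mannose receptor, fell with RNY1+/+ EV_Fx_ (-3.52) and with RNY1-/- EV_Fx_ (-2.74), from 704 ± 177 CPM in PBS. Clec7a, the receptor for beta-glucan, fell in the same comparisons, by log2 fold changes of -1.67 and -1.39. Between genotypes edgeR and DESeq2 called 0 of 7 in either fraction, with 6 in EV_Fx_ and 2 in Protein_Fx_ at an unadjusted p under 0.05, as had 58.5% and 19.3% of all genes. Between fractions 3 of 7 were higher with RNY1+/+ Protein_Fx_, beside 6.64% of all genes, and 2 of 7 with RNY1-/- Protein_Fx_, beside 4.97%.

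Genes related to Lrp1, with their chaperone and regulators, had 10 of 13 tested against PBS. In the same order of groups 2, 3, 1 and 1 rose and 2, 1, 2 and 1 fell, with medians of 0.19, -0.19, 0.00 and -0.14. Of all genes 8.24%, 9.02%, 8.96% and 6.3% rose and 8.18%, 13.5%, 12.3% and 7.97% fell, with a median of -0.03 in each. The counts of this list were too small to read against these shares. Lrp8 rose by 2.99 and 3.21 with the EV_Fx_ of RNY1+/+ and RNY1-/- donors, and Lrp11 by 1.29 and 1.54. With the Protein_Fx_ of these donors Lrp11 rose by 1.86 and 1.31. In these comparisons Lrp1 itself fell. Lrp6 fell by 1.14 with RNY1+/+ EV_Fx_, and Sorl1 fell by 1.42 with RNY1+/+ Protein_Fx_. Between genotypes, Sorl1 was higher by 1.12 (adjusted p = 0.0104) with RNY1-/- Protein_Fx_, the only called gene of 9 tested there, where 0.658% of all genes were called higher and 1.16% lower. In EV_Fx_ edgeR and DESeq2 called 0 of 9, and 7 had an unadjusted p under 0.05, as had 58.5% of all genes.

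Genes for the uptake of apoptotic cells, a task shared with several scavenger receptors, had 19 of 24 tested. In the same order 0, 0, 2 and 2 rose and 9, 9, 7 and 4 fell, by edgeR and by DESeq2, with medians of -0.75, -0.88, -0.48 and -0.26. At an unadjusted p under 0.05, 1, 2, 3 and 3 were higher and 14, 13, 11 and 6 lower, beside the shares at that limit given above. The shares called lower were above those of all genes in each comparison, which were 8.18%, 13.5%, 12.3% and 7.97%. Those called higher over all genes were 8.24%, 9.02%, 8.96% and 6.3%. Gas6, which bridges phosphatidylserine to the TAM receptors, fell with log2 fold changes of -2.65, -3.06, -3.76 and -2.47 from 555 ± 201 CPM in PBS. Mfge8, another bridging protein, fell with RNY1-/- EV_Fx_ (-3.18), with RNY1+/+ Protein_Fx_ (-2.48) and with RNY1-/- Protein_Fx_ (-2.27). Mfge8 averaged 39.0 CPM in RNY1+/+ EV_Fx_, beside 169 CPM in PBS. At most 2 genes per direction were named in a comparison, so one not named may have changed as well. Havcr2 fell by 2.92 with RNY1+/+ EV_Fx_. It averaged 8.37 and 17.1 CPM in the Protein_Fx_ of RNY1+/+ and RNY1-/- donors, beside 24.2 CPM in PBS. Thbs1, whose product binds CD36, rose by 2.44 and 1.79 with the Protein_Fx_ of RNY1+/+ and RNY1-/- donors, and Cd47 by 1.57 and 1.37. Between genotypes, Mfge8 fell by 1.25 with RNY1-/- EV_Fx_, while Gas6 and Havcr2 were higher by 1.32 and 1.02 with RNY1-/- Protein_Fx_, of which DESeq2 called 1. These were 1 of 18 tested, beside 1.96% of all genes lower, and 2 of 19, beside 0.658% higher.

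Lipid loading genes, which act on the cargo of CD36 and related receptors, had 19 of 22 tested. In the same order 2, 1, 1 and 1 rose and 4, 4, 5 and 2 fell, with medians of -0.38, -0.67, -0.78 and -0.51. Of all genes 8.24%, 9.02%, 8.96% and 6.3% rose and 8.18%, 13.5%, 12.3% and 7.97% fell, with a median of -0.03 in each. The shares that fell with the EV_Fx_ and Protein_Fx_ of RNY1+/+ donors were above those of all genes. For RNY1-/- EV_Fx_, 4 of 19 fell, beside 13.5% of all genes in the same fit. Total counts made the share of all genes that fell larger in each comparison with PBS, at 19.9% for RNY1-/- EV_Fx_. The genes of this list were not counted with that scaling. Acsl1, which activates long-chain fatty acids, rose by log2 fold changes of 3.96, 3.62, 3.08 and 1.48 from 35.0 ± 2.88 CPM in PBS. Pparg, a known activator of Cd36 transcription, fell with RNY1+/+ EV_Fx_ (-2.19) and with RNY1+/+ Protein_Fx_ (-1.80). Plin2, which coats lipid droplets, fell with the EV_Fx_ of RNY1+/+ (-1.86) and RNY1-/- donors (-2.096). Apoe fell with RNY1-/- EV_Fx_ (-2.1) and with RNY1+/+ Protein_Fx_ (-1.90), and Lipa, the lysosomal acid lipase, fell by 1.26 with RNY1-/- Protein_Fx_. Apoe averaged 781 CPM in RNY1+/+ EV_Fx_, beside 1834 CPM in PBS. Nr1h3 rose by 1.27 with RNY1+/+ EV_Fx_. Between genotypes, Apoe fell by 1.04 with RNY1-/- EV_Fx_ and Acsl1 fell by 1.59 with RNY1-/- Protein_Fx_, each 1 of 19 tested, beside 1.96% and 1.16% of all genes. The housekeeping genes Rab14, Arpc2 and Cltc had log2 fold changes between -0.17 and 0.25. The study had picked them from these same libraries for small changes with RNY1+/+ Protein_Fx_ against PBS and between genotypes in Protein_Fx_, so their level there was settled by that choice and is no separate check.

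The genes whose log2 levels over the 20 libraries were most like those of Olr1, among 7551 with a mean of at least 10 CPM, were Tgfbi (Pearson r 0.94), Notch1 (0.93) and Cyfip1 (0.93). Tgfbi averaged 18.98 CPM in PBS, 71.2 and 62.4 CPM in RNY1+/+ and RNY1-/- EV_Fx_, and 315 and 154 CPM in RNY1+/+ and RNY1-/- Protein_Fx_. For Marco they were Batf (0.98), Ccl5 (0.97) and Cd40 (0.97), among 7550 genes. Batf averaged 4.57 CPM in PBS, 55.7 and 39.6 CPM in the EV_Fx_ groups and 26.5 and 12.8 CPM in the Protein_Fx_ groups. Like Marco it ran from RNY1+/+ EV_Fx_ down to PBS. These libraries belong to 5 treatment groups, and both genes of a pair come from the same libraries. The coefficients therefore describe likeness over treatments and carry no test.

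In GC content the members spread over nearly the whole range of the genes tested. Cd36 transcripts had 38.7% GC, higher than 2.36% of 10901 genes, Msr1 43.2% (14.8% of genes lower), Colec12 44.6% (21.0%) and Olr1 45.3% (24.8%). Cd5l had 51.5% (59.9% of genes lower), Scarb1 55.1% (79.1%), Marco 55.9% (83.4%), Stab1 56.1% (84.7%) and Lrp1 57.9% (92.0%). Length and GC trends were removed in the same fit, so their parts in the calls that ended were not told apart. Fold changes against PBS followed GC across genes with Spearman rho of -0.09 and -0.42 for the EV_Fx_ of RNY1+/+ and RNY1-/- donors, and -0.45 and -0.48 for their Protein_Fx_. It was 0.16 between genotypes in Protein_Fx_, -0.48 between the fractions of RNY1+/+ donors and 0.57 for the difference of genotype effects. Olr1 was called in each of these.

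Promoter sequences were found for 6 of the 9 members in RefSeq's table of mouse assembly GRCm38.p6, by symbol; Msr1, Scarb1 and Colec12 were not matched. The 250 bases before the start of transcription were searched on both strands for 8 motifs. The AP-1 motif TGANTCA occurred in Olr1 alone of the 6, and in 6.75% of 32851 promoters. The NF-kB motif (GGG, 5 of any base, then CC) occurred in Marco and Cd36 and in 45.8% of promoters. The PU.1 motif GAGGAA occurred in Marco, Cd5l, Olr1 and Stab1 and in 23.3% of promoters. Lrp1 held the GAS motif TTCNNNGAA, as did 7.02% of promoters, and the antioxidant response motif TGACNNNGC, as did 10.2%. The ISRE motif (GAAA, 2 of any base, then GAAA; 2.98% of promoters), the E-box CACGTG (6.02%) and the TATA box TATAAA (12.4%) were in none of these 6 windows. A match is a run of letters and says nothing of a factor's binding.

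The Olr1 and Marco windows are printed because these genes were the members called between donor genotypes, each highest under a different fraction. Both are on the minus strand and are written 5′ to 3′ toward the start, Olr1 from chr6:129507166-129507415 and Marco from chr1:120505025-120505274. Capitals in Olr1 mark a PU.1 motif on the reverse strand, 76 to 71 bases before the start, and the AP-1 motif at 60 to 54. Capitals in Marco mark an NF-kB motif at 204 to 195 bases before the start, a PU.1 motif at 146 to 141, and NF-kB motifs on both strands that overlap at 30 to 21 and 29 to 20.
Olr1: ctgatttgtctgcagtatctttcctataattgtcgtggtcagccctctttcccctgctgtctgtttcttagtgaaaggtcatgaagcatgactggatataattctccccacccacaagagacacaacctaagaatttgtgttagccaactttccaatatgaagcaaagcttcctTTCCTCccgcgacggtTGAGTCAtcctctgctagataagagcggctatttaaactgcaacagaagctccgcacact
Marco: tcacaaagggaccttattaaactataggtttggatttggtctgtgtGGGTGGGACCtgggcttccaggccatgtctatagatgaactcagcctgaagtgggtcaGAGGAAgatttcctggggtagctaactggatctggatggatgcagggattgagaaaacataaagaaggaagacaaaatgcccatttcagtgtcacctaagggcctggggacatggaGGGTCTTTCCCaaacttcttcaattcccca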

How the data were processed

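Gene-level RNA sequencing values of 20 libraries, 4 for each of 5 treatments, were analysed, and 0 columns were left unmatched to a library. Per the labels, reads were filtered with fastp 0.24.0, aligned to GRCm39 with STAR 2.7.11 and counted with featureCounts (Subread 2.1.1), with multi-mapping reads split into fractions, after removal of duplicates by molecular identifier. The authors deposited the resulting expected counts, not normalized, and the authors also deposited CPM, the count over the library's total; both were checked on the values. Fractional counts made up 23.6% to 26.3% of detected genes and were rounded before testing. All library names share 1 prefix, and whether it marks a batch is not stated.

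Each comparison used the 8 libraries of its groups, or 16 for the difference of genotype effects. Genes passed edgeR's filterByExpr and a mean of 3 CPM, were scaled by TMM and were tested with edgeR 4.0.16 (glmQLFit, glmQLFTest). Replicate numbers came from the titles. Deviations of same-numbered libraries from their group means had r above 0.1 in 4 of 4 pairs for 2 comparisons. These were RNY1-/- EV_Fx_ with PBS (0.13 to 0.38) and with RNY1-/- Protein_Fx_ (0.22 to 0.40). The numbers were taken to pair the libraries of these 2 comparisons, which is an assumption. Some libraries of different numbers were as alike. PBS replicate 1 had r of 0.29 with RNY1-/- EV_Fx_ replicate 2 and 0.14 with replicate 1. RNY1-/- EV_Fx_ replicate 1 had r of 0.21 with RNY1-/- Protein_Fx_ replicate 2 and 0.22 with replicate 1. The values in the report come from fits without the replicate number, as planned, and a block on it changed no call. The standard error was taken as the size of the log2 fold change divided by the root of the F statistic. The tests were tried on simulated data. Members, lists and alternatives were chosen with earlier results of these data known. Genes named beside the members were, per list and comparison, up to 2 called genes in either direction, by size of change, averaging at least 10 CPM and without overlap of the groups. The named genes also include the 3 genes most like Olr1 and Marco by Pearson r of log2 CPM (prior count 2), and the housekeeping genes. In 1 list, 1 planned gene is not reported here. Alternatives were DESeq2 1.42.0, total counts, scaling to housekeeping genes, other filters, no fold limit, all libraries in 1 fit, a replicate block, leaving libraries out, and removal of transcript length and GC trends (splines with 4 degrees of freedom per library). Lengths and GC were medians over a gene's transcripts in a GENCODE annotation of GRCm38, known for 96.7% to 97.1% of genes tested. No coordinates of GRCm39 were used. The median length was 772.5 bases for Lrp1, 823 for Scarb1 and 1236 for Stab1. It need not be that of the transcripts present in these cells. R 4.3.3, python 3.11.15, numpy 2.4.6, pandas 2.3.3, scipy 1.17.1 and matplotlib 3.10.9 were used.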

Additional observations from a re-analysis of the deposited data

Results flagged for a closer look

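In 45 groups of 4 values (9 genes in 5 groups), 5 had a library whose gap to its nearest neighbour, divided by the range of the group, was above Dixon's 95% limit, which chance passes in about 1 of 20 groups. The ratio was 0.831 for Olr1 in RNY1-/- EV_Fx_ replicate 3. It was 0.915 for Marco in RNY1-/- Protein_Fx_ replicate 2. Cd36 in RNY1+/+ Protein_Fx_ replicate 3 had 0.842, and Scarb1 in RNY1-/- EV_Fx_ replicate 3 had 0.850. Lrp1 in RNY1+/+ EV_Fx_ replicate 4 had 0.842.

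The genotype effect in Protein_Fx_ minus that in EV_Fx_ had an adjusted p under 0.05 for 6 members. The log2 difference was -2.78 for Olr1, -0.96 for Msr1, 0.73 for Scarb1, 0.59 for Stab1, 0.76 for Cd5l and 0.67 for Lrp1.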

How the results depend on the processing

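Of 1448 values of single members under the alternatives, 1363 kept their direction and their side of the limits, 36 gained a call (25 of them by dropping the fold limit), 28 lost it and 21 turned direction, none of these called before or after. DESeq2, both other filters, all 20 libraries in 1 fit and the replicate block changed the call or direction of none of 76 values each. With the replicate block the counts of members called were 5, 5, 8, 7, 0, 2, 6, 2 and 1, in the order of the comparisons in the report's 4 against PBS, genotype in EV_Fx_ and in Protein_Fx_, fractions by RNY1+/+ and by RNY1-/-, and the difference of genotype effects. In the comparisons other than the 2 named as paired under processing, not all same-number pairs had r above 0.1. Over all groups 21 of 40 such pairs did (range -0.39 to 0.64), and 10 of 20 libraries were closest to their own number, a hint from the data and not from the design. For genotype in Protein_Fx_, with r of -0.28 to 0.21, the block put Marco at -1.21 (SE 0.15, adjusted p = 0.00368), and Marco was lower with RNY1-/- in 4 of 4 same-number pairs. The block put Cd5l in that comparison at 0.56 (adjusted p = 0.0705), no longer past the limit on p. For the difference of genotype effects the block put Marco at -0.55 (adjusted p = 0.0252) and Colec12 at -0.60 (adjusted p = 0.0485), under the fold limit. In the comparison of the RNY1-/- fractions, taken as paired, the block put Cd36 at 0.32 (adjusted p = 0.0194), also under the fold limit. For the 2 comparisons taken as paired, the block was also fitted with length and GC trends removed. It called 6 members for RNY1-/- EV_Fx_ against PBS and 2 for the fractions of RNY1-/-. This alternative was added after seeing the data.

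By construction, adjusted p alone called more members: 6 with the EV_Fx_ of RNY1+/+ donors and 8 with that of RNY1-/- donors against PBS, 7 for genotype in EV_Fx_, 4 for genotype in Protein_Fx_, 8 for the fractions of RNY1+/+, 7 for those of RNY1-/- and 6 for the difference of genotype effects. Of all genes, 4810 of 10802 and 6255 of 10733 passed for these EV_Fx_ groups against PBS. For genotype 5379 of 10324 passed in EV_Fx_ and 581 of 10480 in Protein_Fx_. Between fractions 6605 of 10448 passed for RNY1+/+ and 3045 of 10427 for RNY1-/-. For the difference of genotype effects 3444 of 10451 passed. Removal of length and GC trends left 5 members for RNY1+/+ Protein_Fx_ and 3 for RNY1-/- Protein_Fx_ against PBS. For genotype in Protein_Fx_, total counts left 1, housekeeping scaling 1, and leaving out 1 library 1 to 2. For the difference of genotype effects, leaving out 1 library gave 0 to 2. Leaving out RNY1-/- Protein_Fx_ replicates 1 and 2 gave 0, and replicates 3 and 4 gave 2, alternatives chosen for this difference after seeing the data.

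Apart from calls, and leaving single omissions aside, 52 values under the fold limit crossed the limit on adjusted p, 17 into it and 35 out of it. Removal of length and GC trends made 15 of these crossings. Of the values that turned direction, Lrp1 between the fractions of RNY1+/+ without trends had an adjusted p of 0.000153, and the others had adjusted p above 0.05. Against PBS, Msr1 with RNY1+/+ EV_Fx_ was -0.10 with total counts and -0.10 without trends, and Scarb1 was -0.081 with total counts and -0.055 to 0.23 without 1 library. Msr1 with RNY1-/- EV_Fx_ was -0.078 without trends, and -0.0795 with the block as well. Colec12 with RNY1-/- Protein_Fx_ was 0.17 without replicates 1 and 2 and -0.30 to 0.0495 without 1 library. For genotype in Protein_Fx_, Stab1 was -0.22 without replicates 1 and 2 and -0.076 to 0.17 without 1 library, Colec12 was -0.086 without replicates 3 and 4 and -0.0069 to 0.34 without 1 library, and Lrp1 was -0.038 without replicates 1 and 2. Between the fractions of RNY1+/+, without trends Cd36 was -0.0715 and Lrp1 0.45, and Lrp1 was -0.12 to 0.026 without 1 library. In the difference of genotype effects Cd36 was 0.036 with total counts, 0.34 without trends, 0.14 without replicates 1 and 2 and -0.20 to 0.062 without 1 library. The cause of these changes was not tested. Olr1 was tested against PBS in all 4 groups only with no filter or all 20 libraries in 1 fit, and was then called in each; in the latter it was 3.81 for RNY1+/+ EV_Fx_, 3.52 for RNY1-/- EV_Fx_ and 4.45 for RNY1-/- Protein_Fx_.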
